A study of Mus musculus with 8 samples.

Results

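The genes of telomerase and of shelterin were followed through RNAseq of sorted GFP+ (mG+) cells from mice with and without an endothelial *Tert* knockout. The set was chosen by gene name and holds 9 of the 54532 genes in the count table: *Tert* and *Dkc1* of telomerase, and *Terf1*, *Terf2*, *Terf2ip*, *Tinf2*, *Acd*, *Pot1a* and *Pot1b* of shelterin. All 9 were present and all 9 averaged at least 10 counts per library, as did 16971 genes in all, so that each could be tested. The 8 libraries came from females aged 8 months that carried Tie2e-cre and the mTmG reporter. Those called KO were TERTfl/fl and those called WT were TERT+/+. Cells came from subcutaneous adipose tissue (SAT) of mice on high-fat diet (HFD), and from SAT, visceral adipose tissue (VAT) and gastrocnemius muscle of mice on chow, with 1 WT and 1 KO library in each of these 4 pairs. Cre is driven by the *Tie2e* promoter, which is used as endothelial, and a cell that ever expressed Cre keeps its GFP. The sources do not say whether cells of several mice were pooled, whether SAT, VAT and muscle on chow share donors, or which *Tert* exons are floxed.

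Telomerase adds telomeric repeats to chromosome ends. *Tert* encodes its reverse transcriptase and *Dkc1* encodes dyskerin, which binds and stabilises the telomerase RNA and also modifies ribosomal RNA. Shelterin is the protein complex that coats telomeric DNA: TRF1 (*Terf1*) and TRF2 (*Terf2*) bind the duplex repeats, RAP1 (*Terf2ip*) joins TRF2, TIN2 (*Tinf2*) bridges TRF1 and TRF2 to TPP1 (*Acd*), and TPP1 holds the POT1 proteins on the single-stranded overhang. Mice carry separate *Pot1a* and *Pot1b* genes where humans have *POT1* alone. Most adult tissues hold little *Tert* transcript, whereas shelterin genes are transcribed in nearly all cells and lymphocytes can raise *Tert* on activation.

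Library totals ran from 6214269 to 18855772 counts, and 3 counts, used as the floor for bounds, correspond to 0.181 to 0.451 CPM, the count scaled to the TMM-normalized size of its library. All 14 endothelial markers were detected in every library, with a summed level of 405 to 802 CPM in SAT, 2122 to 2770 CPM in VAT and 2551 to 3047 CPM in muscle. Other cells were present too. T cell markers (10 genes, none at 0 in any library) summed to 2043 to 4033 CPM in SAT against 302 to 399 in VAT and 564 to 835 in muscle. Macrophage markers (9 genes, none at 0) summed to 9218 and 9356 CPM in VAT and to at most 853 elsewhere, and neutrophil markers (10 genes, with *Ly6g* at 0 in both SAT on HFD libraries) to 26482 and 30262 CPM in muscle. B cell markers (9 genes, none at 0) summed to 1723 to 2611 CPM in SAT, 180 and 185 in VAT and 1079 and 1180 in muscle. Stromal markers (10 genes, none at 0) summed to 752 to 3533 CPM over the libraries, and mural markers to at most 701. The GFP+ libraries therefore held endothelial transcripts together with those of blood, stromal and mural cells. In such bulk samples fewer cells of a type cannot be told apart from less RNA per cell. With 1 library per genotype and condition, a difference within a pair describes those libraries only, and its 95% interval covers counting error only. Adjusted p-values are Benjamini-Hochberg values over 16971 genes from the quasi-likelihood test of edgeR, and measure only the spread between these libraries.

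RefSeq promoters were found for 8 of the 9 genes (assembly GRCm38.p6). The 250 bases before the annotated start are printed for *Tert* (chr13:73626661-73626910, plus strand), the floxed gene, and for *Tinf2* (chr14:55681818-55682067, minus strand), the most abundant shelterin transcript. They are also printed for the paralogues *Pot1a* (chr6:25809219-25809468, minus strand) and *Pot1b* (chr17:55712637-55712886, minus strand). Of these paralogues only *Pot1b* had both VAT libraries above the other 6, and neither was called in the test among conditions. Sequences run 5′ to 3′ on the gene's strand, and capitals mark matches on either strand to the E-box CACGTG, the GC box GGGCGG, the ETS core CCGGAA or the CRE TGACGTCA.
Tert: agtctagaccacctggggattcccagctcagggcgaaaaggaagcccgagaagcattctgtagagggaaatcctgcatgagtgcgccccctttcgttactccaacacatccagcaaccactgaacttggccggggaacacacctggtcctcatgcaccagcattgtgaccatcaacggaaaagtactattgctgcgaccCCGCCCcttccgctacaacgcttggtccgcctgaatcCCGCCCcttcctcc
Tinf2: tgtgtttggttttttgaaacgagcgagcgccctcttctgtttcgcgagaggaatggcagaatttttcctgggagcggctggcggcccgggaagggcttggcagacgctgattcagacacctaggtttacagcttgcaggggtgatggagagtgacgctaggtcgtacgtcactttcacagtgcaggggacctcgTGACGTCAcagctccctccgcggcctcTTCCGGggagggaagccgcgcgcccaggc
Pot1a: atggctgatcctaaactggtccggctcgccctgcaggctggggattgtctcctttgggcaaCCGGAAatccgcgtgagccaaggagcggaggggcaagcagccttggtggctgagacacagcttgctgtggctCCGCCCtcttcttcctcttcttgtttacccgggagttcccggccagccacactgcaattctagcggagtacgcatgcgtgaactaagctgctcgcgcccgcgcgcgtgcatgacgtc
Pot1b: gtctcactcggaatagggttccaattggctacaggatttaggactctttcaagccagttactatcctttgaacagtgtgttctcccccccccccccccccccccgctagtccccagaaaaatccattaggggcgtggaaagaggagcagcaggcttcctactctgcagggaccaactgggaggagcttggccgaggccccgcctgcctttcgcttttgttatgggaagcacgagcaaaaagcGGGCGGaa

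The *Tert* promoter held 2 GC boxes and those of *Pot1a* and *Pot1b* 1 each, a motif present in 32.7% of all 32851 promoter windows of this length. The ETS core, found in 12.0% of windows, occurred in *Tinf2*, *Acd* and *Pot1a*. Only *Tinf2* held the CRE, which 1.55% of windows hold, and none of the 8 windows held the E-box, which 6.02% hold. Both POT1 genes thus shared the GC box, whereas the ETS core was in *Pot1a* and not in *Pot1b*. GC content was 57.2% for *Tert*, 60.4% for *Tinf2*, 61.6% for *Pot1a* and 56.8% for *Pot1b*, against a median of 52.4% over all windows. A match is a description of the letters, and was not related to the counts.

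Per kilobase of exon, *Tinf2* was the most abundant of the 9 genes, with a mean over the 8 libraries of 13.5 CPM per kb, and *Tert* the least abundant, with 0.546. In between came *Acd* (7.38 in its lowest and 12.98 in its highest library), *Dkc1* with 9.73, *Terf2* with 7.65, *Pot1b* with 6.52, *Terf2ip* with 4.11, *Terf1* with 3.61 and *Pot1a* with 3.04 CPM per kb. Neighbours in this order overlapped in their ranges over the 8 libraries and are not set apart by them, and *Tert* overlapped with *Pot1a* only through its highest library (2.99 CPM per kb).

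**Figure D1:**
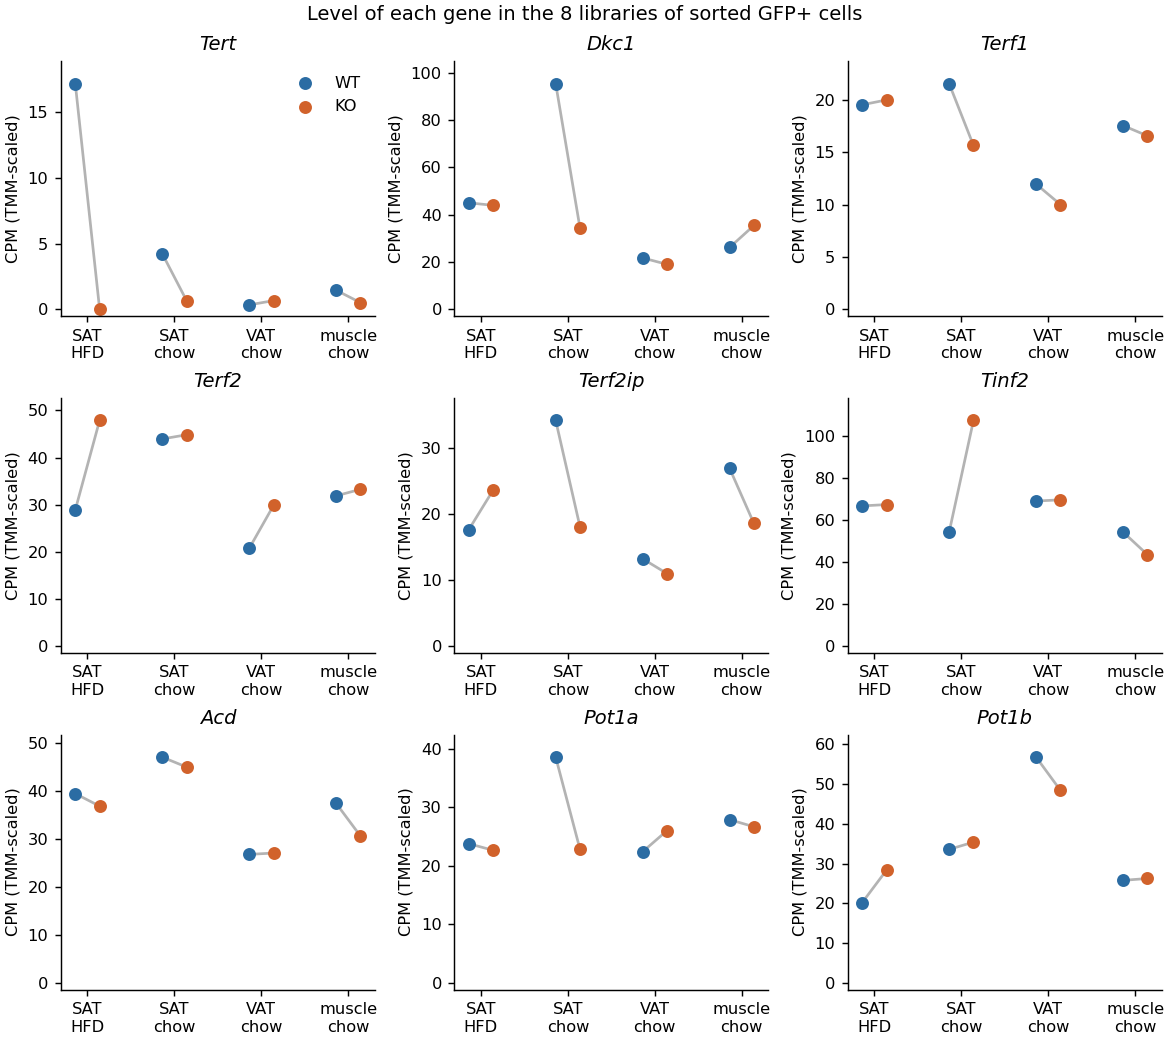
Level of each of the 9 genes in the 8 libraries, in CPM after TMM scaling (vertical axis, which includes 0), by tissue and diet (horizontal axis). Each point is 1 library, blue for WT and orange for KO, and a line joins the libraries of a pair. *Tert* stands out in the WT library of SAT on HFD (17.2 CPM), and *Pot1b* is highest in both VAT libraries (56.8 and 48.4 CPM).

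*Tert* (ENSMUSG00000021611, chromosome 13, 73626911 to 73649843, GRCm38, plus strand) was the only member with a near absence in some libraries. Its counts were 114 (WT, 17.2 CPM) against 0 (KO) for SAT on HFD, and 70 (WT, 4.23 CPM) against 11 (KO, 0.663 CPM) for SAT on chow. For muscle they were 24 (WT, 1.45 CPM) against 7 (KO, 0.507 CPM). These 3 pairs thus had the higher *Tert* level in the WT library. For VAT they were 3 (0.336 CPM) in the library labelled WT against 9 (0.663 CPM) in that labelled KO, so that *Tert* does not show the labelled genotype there, and every direction drawn from VAT below rests on the labels. Exon counts cannot separate transcripts with the floxed part from those without it.

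With 3 counts put in place of its 0, *Tert* was 72.2-fold lower in KO in SAT on HFD. The 95% counting interval of that log2 difference lay below −5.85, which also allows a smaller fold. *Tert* was 6.38-fold lower in KO in SAT on chow (log2 −2.61, 95% counting interval −3.74 to −1.75) and 2.87-fold lower in muscle (−1.45, −2.98 to −0.26). In VAT the counting interval of the difference ran from −1.02 to 3.50. Across the 4 pairs the edgeR estimate was −2.39 (SE 1.69, adjusted p = 0.9999), and without the SAT on HFD pair it was −1.20, the smallest drop among the fits that left out a pair. *Tert* was thus lower in KO beyond counting error in 3 of 4 pairs, and the difference across pairs did not pass the test.

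Among the WT libraries the order of *Tert* was SAT on HFD, SAT on chow, muscle and VAT. The WT library of SAT on HFD held 47.9% of all 238 *Tert* counts and 68.6% of the CPM summed over libraries, and stood 4.05 times above the next library. Of all tested genes, 0.389% stood at least as far above the highest other library in that same library. It was also the smallest library and had 9.72% of its counts on *Gm26917*, a long noncoding RNA, and the part of either in the result was not tested. The KO library of the same tissue and diet had no *Tert* count. The estimate for HFD over chow in SAT was 1.17 (SE 2.03, adjusted p = 0.920 by edgeR), and it turned to −7.12 without that WT library, a fitted value against a library at 0 that depends on the prior count. T cell markers summed to 2107 CPM in the WT library of SAT on HFD and to 4033 CPM in that of SAT on chow. The part of T cells in the *Tert* level was not tested.

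*Dkc1* (ENSMUSG00000031403, chromosome X, 75095854 to 75109777) varied most after *Tert*. Its level was 45.0 (WT) against 43.9 CPM (KO) for SAT on HFD, 95.3 against 34.2 for SAT on chow, 26.1 against 35.4 for muscle, and 21.7 and 19.01 for the VAT libraries labelled WT and KO. A high value in the WT library of SAT on chow thus stood apart, and both VAT libraries lay below the other 6. Within pairs, *Dkc1* was lower in KO in SAT on chow by a log2 difference of −1.48 (−1.62 to −1.34, 2.79-fold) and higher in KO in muscle by 0.44 (0.25 to 0.63). The other pairs were within counting error, at −0.03 in SAT on HFD and −0.19 in VAT by its labels. *Mpp1*, which shares 45 exon bases with *Dkc1* on the opposite strand, differed by −1.32 (−1.47 to −1.18) in SAT on chow.

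The KO library of SAT on chow differed from its WT library in cell makeup as well. T cell markers summed to 4033 CPM in WT and 2043 in KO, stromal markers (10 genes, none at 0) to 787 and 3533 CPM, and the 34 cell cycle genes to 1745 and 1068 CPM. The part of these cells in the differences of this pair was not tested. In the same pair *Nhp2*, *Nop10* and *Ruvbl2* of the telomerase assembly factors were lower in KO as *Dkc1* was, with the values given further on.

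*Terf1* (ENSMUSG00000025925, chromosome 1, 15805646 to 15844052) and *Terf2* (ENSMUSG00000031921, chromosome 8, 107069400 to 107096547) encode the proteins that bind duplex telomeric repeats. The *Terf1* level was 19.6 (WT) against 20.03 CPM (KO) for SAT on HFD, 21.6 against 15.7 for SAT on chow, 17.6 against 16.6 for muscle, and 12.0 and 10.02 for the VAT libraries labelled WT and KO. Its values were lowest in both VAT libraries, and only the SAT on chow pair differed beyond counting error (log2 −0.46, −0.70 to −0.23). Scaled by library totals, that interval spanned 0. The *Terf2* level was 28.9 (WT) against 47.9 CPM (KO) for SAT on HFD, 44.0 against 44.8 for SAT on chow, 31.9 against 33.3 for muscle, and 20.7 and 29.8 for the VAT libraries labelled WT and KO. It was the only member that was higher in KO in all 4 pairs, as were 5.11% of tested genes, and no member was lower in all 4, as were 4.54%. The *Terf2* difference passed counting error in SAT on HFD (0.73, 0.49 to 0.97) and in VAT (0.53, 0.27 to 0.79), and all 4 differences kept their sign under the other scalings. Across the pairs the edgeR estimates were 0.33 for *Terf2* (SE 0.243, adjusted p = 0.9999) and −0.19 for *Terf1* (SE 0.297, adjusted p = 0.9999).

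*Terf2ip* (ENSMUSG00000033430, chromosome 8, 112011398 to 112020528), which encodes the TRF2 partner RAP1, stood at 17.6 (WT) against 23.6 CPM (KO) for SAT on HFD, 34.2 against 18.0 for SAT on chow, 26.9 against 18.6 for muscle, and 13.2 and 11.0 for the VAT libraries labelled WT and KO. Both VAT libraries again lay lowest, and the direction differed between pairs. It was higher in KO in SAT on HFD (log2 0.42, 0.11 to 0.74) and lower in KO in SAT on chow (−0.92, −1.13 to −0.72) and muscle (−0.54, −0.76 to −0.31). *Gm6793*, which shares 108 exon bases with *Terf2ip* on the opposite strand, differed by 0.35 in SAT on HFD, −0.82 in SAT on chow and 0.06 in muscle.

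*Tinf2* (ENSMUSG00000007589, chromosome 14, 55674689 to 55681820) stood at 66.7 (WT) against 67.3 CPM (KO) for SAT on HFD, 54.2 against 107 for SAT on chow, 54.2 against 43.5 for muscle, and 69.0 and 69.5 for the VAT libraries labelled WT and KO. The KO library of SAT on chow was thus its highest, and the remaining 7 lay between 43.5 and 69.5 CPM. The SAT on chow libraries differed by 0.99 on the log2 scale (0.87 to 1.1, 1.98-fold higher in KO), while muscle differed by −0.32 (−0.47 to −0.17) and the remaining pairs by 0.01 each. Scaled by library totals, the muscle difference was −0.15 and its interval spanned 0. In SAT on chow, then, the TIN2 transcript was higher in KO while those of dyskerin, TRF1, RAP1 and POT1a were lower, each beyond counting error except TRF1 when scaled by library totals. *Tinf2* shares 1540 exon bases, 31.2% of its exons, with *Gmpr2* on the opposite strand, and the use of strand in the counting is not given in the sources used here, so that its level is uncertain. *Gmpr2* itself stood at 11.6 (WT) against 8.74 CPM (KO) for SAT on chow, a log2 difference of −0.41 (−0.73 to −0.09), opposite to that of *Tinf2*.

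*Acd* (ENSMUSG00000038000, chromosome 8, 105695860 to 105701102), which encodes TPP1, stood at 39.4 (WT) against 36.8 CPM (KO) for SAT on HFD, 47.0 against 45.0 for SAT on chow, 37.4 against 30.6 for muscle, and 26.8 and 27.0 for the VAT libraries labelled WT and KO. It was highest in both SAT on chow libraries, as were 4.28% of tested genes, and lowest in both VAT libraries. Only the muscle pair differed beyond counting error (log2 −0.29, −0.47 to −0.11). Scaled by library totals, the interval in muscle spanned 0, and the SAT on chow difference went from −0.07 to 0.17 with an interval above 0. *Acd* shares 1208 exon bases, 33.3% of its exons, with *Carmil2* on the opposite strand. *Carmil2* was also lowest in VAT (25.3 and 26.4 CPM, against 56.4 to 181 CPM elsewhere), and its part in the *Acd* counts was not tested.

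*Pot1a* (ENSMUSG00000029676, chromosome 6, 25743737 to 25809246) and *Pot1b* (ENSMUSG00000024174, chromosome 17, 55651951 to 55712628) encode the proteins that cover the overhang. The *Pot1a* level was 23.8 (WT) against 22.6 CPM (KO) for SAT on HFD, 38.6 against 22.8 for SAT on chow, 27.9 against 26.7 for muscle, and 22.4 and 26.0 for the VAT libraries labelled WT and KO. Apart from the WT library of SAT on chow, all values lay between 22.4 and 27.9 CPM, and that pair alone differed beyond counting error (log2 −0.76, −0.95 to −0.57). The *Pot1b* level was 20.2 (WT) against 28.3 CPM (KO) for SAT on HFD, 33.6 against 35.4 for SAT on chow, 25.8 against 26.2 for muscle, and 56.8 and 48.4 for the VAT libraries labelled WT and KO. It was the only member with both VAT libraries above the other 6. Its differences passed counting error in SAT on HFD (0.49, 0.20 to 0.79) and, in the other direction, in VAT (−0.23, −0.40 to −0.06). The annotated transcripts of the paralogues share no stretch of 50 bases, so reads of that length can be told apart.

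**Figure D2:**
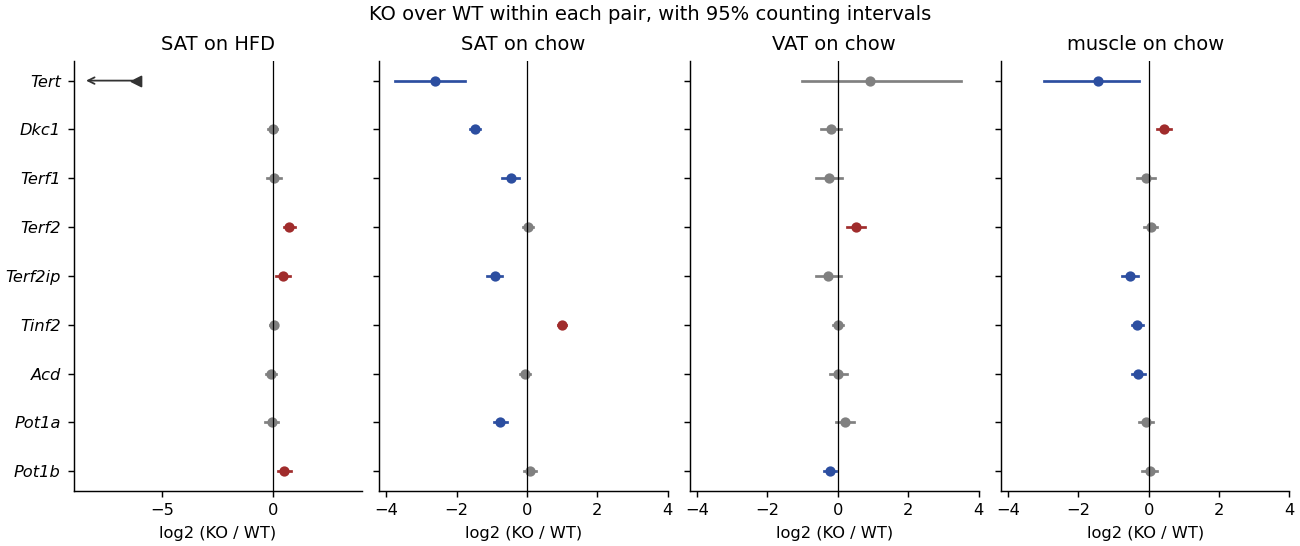
Log2 ratio of KO to WT (horizontal axis) for each gene in each pair, with 95% counting intervals. Red marks intervals above 0, blue intervals below 0 and grey those that span 0. The arrow for *Tert* in SAT on HFD starts at 72.2-fold lower, its fold against 3 counts in KO. SAT on chow has the most intervals below 0, and the horizontal axis of the SAT on HFD panel is wider than the others.

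Counted over the members, the interval of KO over WT lay above 0 for 3 of 9 in SAT on HFD (38.3% of 15839 genes) and below 0 for 1 of 9 (34.3%). It lay above 0 for 1 of 9 in SAT on chow (40.9% of 16908 genes) and below 0 for 5 of 9 (40.3%). In VAT 8 members passed the count filter of the pair, with 1 above 0 (26.6% of 16439 genes) and 1 below (24.7%). For muscle the counts were 1 of 9 above 0 (26.7% of 16967 genes) and 4 of 9 below (29.4%). A share near that of all genes is no result about the members. Library totals in place of TMM moved the median of all genes in SAT on chow to 0.23, in muscle to 0.16 and in SAT on HFD to 0.12. The members above and below 0 were then 4 and 4 in SAT on chow (all genes 47.4% and 33.5%), where *Terf2*, *Acd* and *Pot1b* joined *Tinf2* above 0, and 2 and 2 in muscle (all genes 40.3% and 17.8%). A difference beyond 2-fold was seen for *Tert* in SAT on HFD (16.7% of genes were that much lower), SAT on chow (19.2%) and muscle (6.15%), and for *Dkc1* in SAT on chow. The median over members was 0.01 in SAT on HFD, −0.46 in SAT on chow, −0.09 in VAT and −0.08 in muscle, beside medians of −0.01 to 0.04 over all genes.

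By edgeR's test across the 4 pairs, 0 of the 9 genes had an adjusted p-value under 0.05, as against 1 of all genes (0.00589%), the pseudogene *H2-Ea-ps*. None of the 9 had an unadjusted p-value under 0.05, as did 279 genes (1.64%), nor did DESeq2 call any of them. The estimates lay between −0.33 for *Terf2ip* (SE 0.319, adjusted p = 0.9999) and 0.33 for *Terf2* once *Tert* was set aside.

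Several members had VAT at the end of their range. *Dkc1*, *Terf1*, *Terf2ip* and *Acd* were lower in both VAT libraries than in the other 6, a pattern that 11.9% of tested genes showed, and *Pot1b* was higher in both, as were 15.2%. None of the 9 was called in the test for any difference among the 4 conditions, where 7.83% of genes were, and 2 had an unadjusted p-value under 0.05, as did 21.4%. These were *Pot1b* (range of condition means 1.12 on the log2 scale, adjusted p = 0.184 by edgeR) and *Dkc1* (range 1.61, adjusted p = 0.229). The members' median range was 0.86, against 1.38 for all genes tested. *Pot1a* had the smallest range, 0.38.

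Between VAT and SAT on chow the log2 estimate for *Dkc1* was −1.61 (SE 0.479, adjusted p = 0.109 by edgeR). *Terf2ip* stood at −1.07 (SE 0.452, adjusted p = 0.235), *Terf2* at −0.84 (SE 0.344, adjusted p = 0.220), *Acd* at −0.77 (SE 0.312, adjusted p = 0.215) and *Terf1* at −0.75 (SE 0.422, adjusted p = 0.372). Against these, *Pot1b* stood at 0.61 (SE 0.334, adjusted p = 0.358), while *Pot1a* at −0.31 and *Tinf2* at −0.19 lay within 1 SE of 0. In libraries, *Dkc1*, *Terf1*, *Terf2*, *Terf2ip* and *Acd* had both VAT values below both SAT on chow values, as did 28.1% of genes, and *Pot1b* both above, as did 27.8%. None of the 9 passed the threshold, as did 5.05% of genes, and 4 (*Dkc1*, *Terf2*, *Terf2ip* and *Acd*) had an unadjusted p-value under 0.05, as did 20.3%. With all genes of at least 1 count tested, *Dkc1* had an adjusted p of 0.00656 by edgeR, and DESeq2 gave it 0.0391, within a range of 0.00656 to 0.131 over its alternatives. Without the KO library of SAT on chow its estimate was −2.26 (adjusted p = 0.00726). Macrophage markers were at 9218 and 9356 CPM in VAT against 442 and 853 in SAT on chow. T cell markers were at 302 and 399 against 2043 and 4033, and B cell markers at 180 and 185 against 1921 and 2611. The part of these cells in the differences was not tested.

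**Figure D3:**
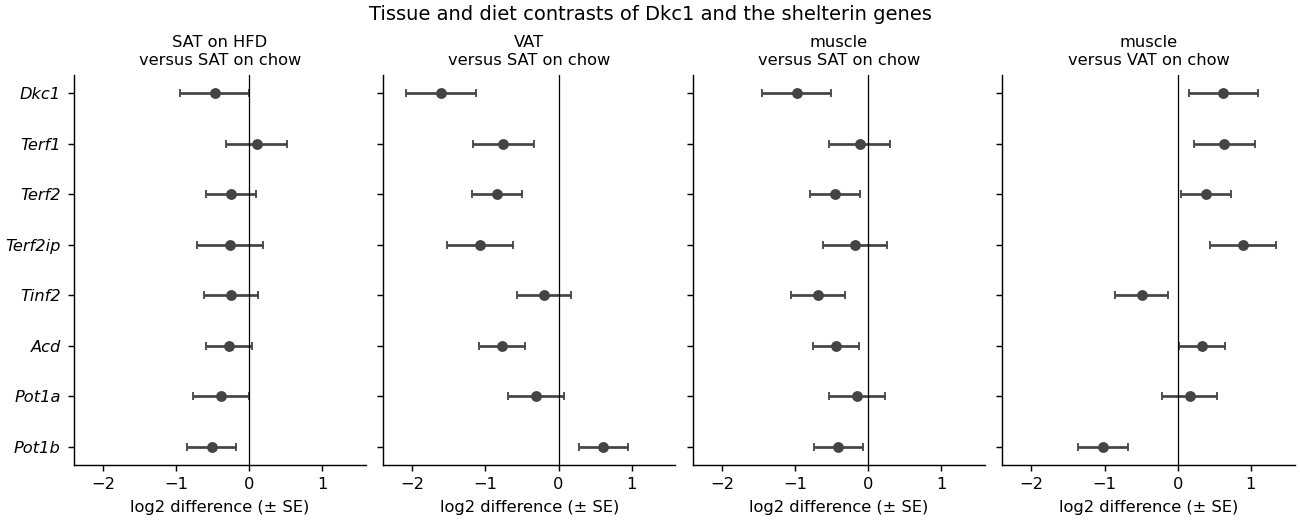
Log2 difference between tissues or diets (horizontal axis) for *Dkc1* and the 7 shelterin genes, from the edgeR fit on all 8 libraries. Points are estimates and bars are standard errors back-calculated from the F test, and the contrasts share libraries. VAT lies below SAT on chow for *Dkc1* (−1.61) and above it for *Pot1b* (0.61), and none of the differences drawn passed an adjusted p-value of 0.05.

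Muscle set against SAT on chow gave −0.98 for *Dkc1* (SE 0.477, adjusted p = 0.506 by edgeR) and −0.69 for *Tinf2* (SE 0.372, adjusted p = 0.569), with the other shelterin genes between −0.45 and −0.11. None was called, as were 1.26% of genes, and none had an unadjusted p-value under 0.05, as did 11.5%. Against VAT, muscle was lower in *Pot1b* by −1.02 (SE 0.337, adjusted p = 0.218), and higher in *Terf2ip* by 0.89 (SE 0.449, adjusted p = 0.492), and neither passed the test, as 1.93% of genes did. *Pot1b* was the only member with an unadjusted p-value under 0.05 there, as had 12.7% of genes. Neutrophil markers summed to 26482 and 30262 CPM in muscle and to at most 507 elsewhere, and their part in the muscle contrasts was not tested. For HFD against chow in SAT the estimates of *Dkc1* and the shelterin genes lay between −0.51 for *Pot1b* (SE 0.336, adjusted p = 0.761) and 0.10 for *Terf1* (SE 0.419, adjusted p = 0.971). *Acd* and *Pot1b* had both HFD libraries below both chow libraries, as did 22.7% of genes. None of the 16971 genes tested was called for diet by edgeR. An unadjusted p-value under 0.05 was seen for 1354 (7.98%), no member among them. DESeq2 called 260 of the same 16971 genes, and edgeR called 289 when every gene of at least 1 count was tested.

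Some members were steadier than most genes of like abundance. The SD of log2 CPM over the 8 libraries was 0.26 for *Pot1a*, and 4.29% of the 2332 genes of similar level had a smaller one. The same share was 11.6% for *Terf1* (SD 0.38) and 12.8% for *Acd* (SD 0.31). It was 30.6% for *Terf2*, 36.0% for *Tinf2*, 41.3% for *Terf2ip* and 46.6% for *Pot1b*, near the middle of their peers. *Dkc1* (SD 0.73) and *Tert* (SD 2.59) varied more than most of theirs, with 76.1% and 72.5% of genes below them.

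Ratios between members do not depend on how libraries are scaled. *Pot1b* took 71.7% (95% exact binomial interval 68.2 to 75) of the *Pot1a* and *Pot1b* counts in the VAT library labelled WT and 65.0% (62.0 to 68.0) in that labelled KO. Its share was 45.9% (WT) against 55.6% (KO) for SAT on HFD, 46.5% against 60.8% for SAT on chow, and 48.0% against 49.6% for muscle. Both VAT libraries thus lay above all others. Per kilobase, *Pot1b* exceeded *Pot1a* in all 8 libraries, from 1.40 times in the WT library of SAT on HFD to 4.17 times in VAT. Among the 7 shelterin genes per kilobase, *Pot1b* had rank 2 in both VAT libraries and rank 4 or 5 in the others, while *Tinf2* had rank 1 in 7 libraries and *Acd* in the WT library of SAT on chow.

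**Figure D4:**
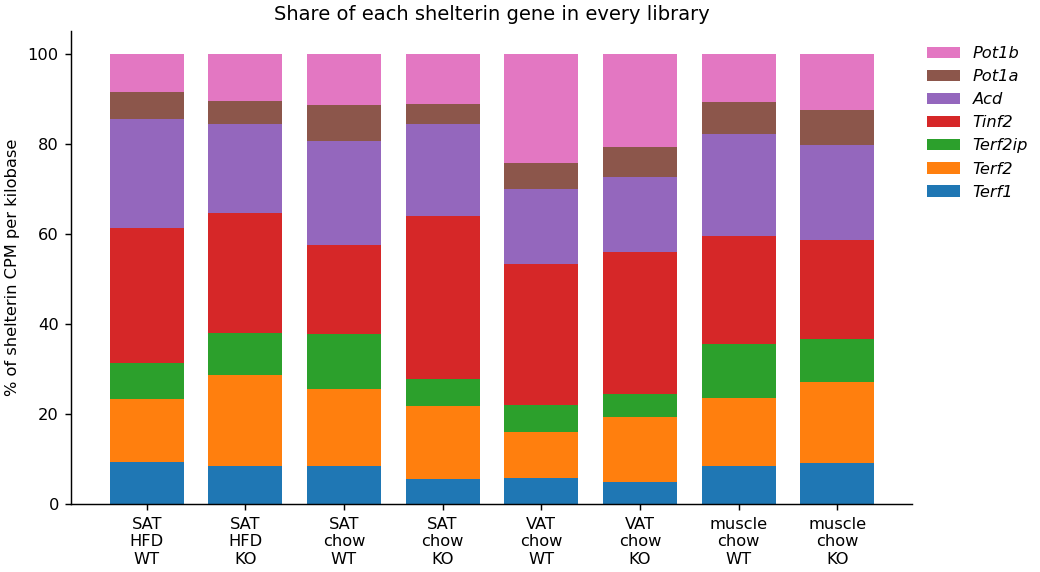
Share of each of the 7 shelterin genes in their summed CPM per kilobase (vertical axis, %), in each library. *Pot1b* makes up 24.2% and 20.6% in the VAT libraries and between 8.50% and 12.5% in the other 6, and *Tinf2* reaches 36.1% in the KO library of SAT on chow.

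The share of *Terf2* against *Terf1* and against *Terf2ip* had the same direction in every pair. Its log2 ratio to *Tinf2* did not, being lower in KO in SAT on chow (−0.96) and higher in the other pairs (0.38 to 0.72). The log2 ratio of *Terf2* to *Pot1b* was also lower in KO in SAT on chow alone (−0.05). Of the *Terf1* and *Terf2* counts, *Terf2* took 59.6% (WT) against 70.5% (KO) for SAT on HFD, 67.1% against 74.1% for SAT on chow, 64.5% against 66.7% for muscle, and 63.4% and 74.9% for the VAT libraries labelled WT and KO. Of the *Terf2ip* and *Terf2* counts, *Terf2ip* took 37.9% (WT) against 33.0% (KO) for SAT on HFD, 43.7% against 28.7% for SAT on chow, 45.8% against 35.8% for muscle, and 38.9% and 26.9% for the VAT libraries labelled WT and KO. The *Terf2* share against *Terf1* was thus higher and the *Terf2ip* share against *Terf2* lower in KO in every pair. For *Terf2ip* the binomial intervals of WT and KO did not overlap in SAT on chow, VAT and muscle. The mean log2 ratio of *Terf2* to *Terf2ip* was 0.66 higher in KO (SD 0.278, n = 4 pairs, exact two-sided sign-flip permutation p = 0.125, the smallest that 4 pairs allow). Every ratio that kept 1 direction in the 4 pairs has this p, so it adds nothing to that direction. The ratios of *Terf2* to *Terf1* and to *Terf2ip* were 2 of 6 that kept 1 direction in all pairs, out of 28 between the 8 members other than *Tert*. The other 4 were *Terf1* to *Pot1b* and *Terf2ip* to *Pot1b*, both lower in KO, and *Terf2* to *Acd* and *Terf2* to *Pot1a*, both higher. They share *Terf2*, *Terf1*, *Terf2ip* or *Pot1b* and are not separate observations. Ratios among other genes were not counted for comparison, so the 6 of 28 has no background share.

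**Figure D5:**
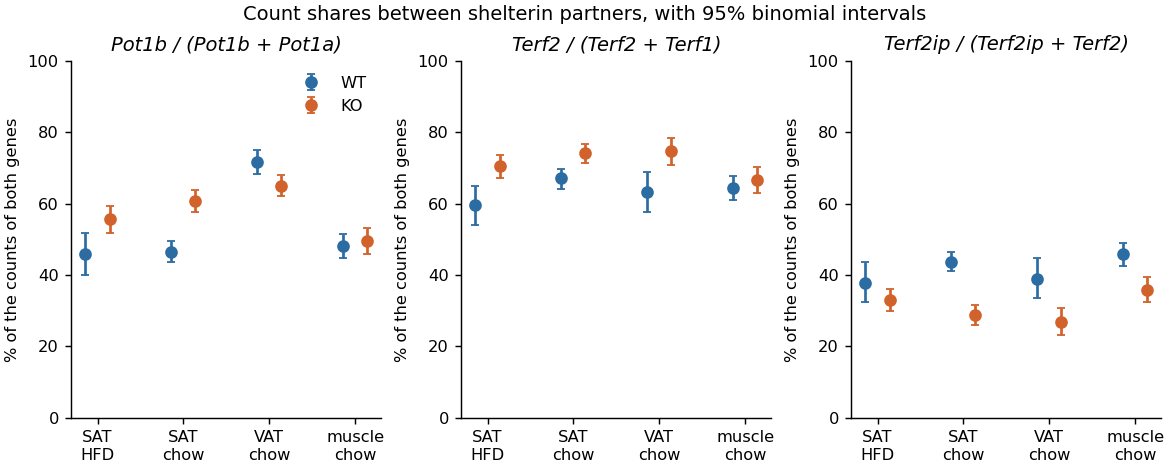
Share of the first gene in the summed counts of a pair of shelterin genes (vertical axis, %, from 0 to 100) in each tissue and diet. Points are libraries, blue for WT and orange for KO, with 95% exact binomial intervals that cover counting error. *Pot1b* takes its largest shares in VAT (71.7% and 65.0%), the *Terf2* share is higher in KO in all 4 pairs, and the *Terf2ip* share is lower in KO in all 4.

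The summed shelterin level ran from 195 CPM in the KO library of muscle to 289 CPM in that of SAT on chow. It was 216 (WT) against 247 CPM (KO) for SAT on HFD, 273 against 289 for SAT on chow, 222 against 195 for muscle, and 221 and 222 for the VAT libraries labelled WT and KO. The total was thus higher in KO in both SAT pairs and lower in KO in muscle, under TMM scaling and with no interval. In SAT on chow *Tinf2*, whose level is uncertain, went from 54.2 (WT) to 107 CPM (KO). *Terf1*, *Terf2ip* and *Pot1a* were lower in KO there, and *Terf2*, *Acd* and *Pot1b* differed within counting error. Library totals, which moved the median of all genes in muscle to 0.16, were not applied to the sum.

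Partners of telomerase were read from a list of 16 assembly and trafficking factors, 15 of which had enough counts. In SAT on chow 10 of the 15 had intervals below 0 (40.3% of all genes) and 3 above (40.9%), with a median of −0.85 against −0.0043 for all genes. The largest differences were those of *Nhp2* (−2.01, from 1272 to 317 counts), *Nop10* (−1.56, from 1045 to 354) and *Ruvbl2* (−1.45, from 1187 to 434). *Nhp2* and *Nop10* encode H/ACA proteins that sit beside dyskerin on the telomerase RNA, and *Ruvbl2* an ATPase of its assembly. In the other pairs the median lay between −0.02 and 0.08. *Nhp2* also differed by −1.41 in SAT on HFD (from 273 to 195 counts). *Terc*, the RNA component, had 8 (WT) and 3 (KO) counts for SAT on chow and 12 in the KO library of muscle. It had 0 in the other 5 libraries, which allows up to 0.451 CPM in the smallest of them. The labels give an mRNA library kit, and whether it captures this RNA is not stated in the sources used here. These counts therefore do not set the level of *Terc* in the cells. By the test among conditions 1 of the 15 was called, as were 7.83% of all genes. It was *Tep1*, a telomerase-associated protein also found in vault particles (adjusted p = 0.0205 by edgeR). *Tep1* had 148 and 169 CPM in VAT, 48.0 and 48.6 in SAT on HFD, 69.5 and 77.7 in SAT on chow, and 63.0 and 56.4 in muscle.

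CST, the complex that limits telomerase and recruits polymerase alpha-primase for fill-in, was read with that polymerase as 7 genes. In SAT on chow all 7 had intervals below 0 (40.3% of all genes), with a median of −0.50, and 4 of 7 had under library totals. There *Ten1* differed most (−1.90, from 514 to 138 counts). In SAT on HFD 4 of 7 had intervals above 0 (38.3% of all genes), with a median of 0.46, and *Pola2* differed most (1.64, from 50 to 297 counts). The difference between these pairs was not tested. None of the 7 was called across pairs or conditions.

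Of the 17 genes that sense broken or unprotected ends, 2 were called in VAT against SAT on chow, both lower. Of all genes 5.05% were called there, 1.74% as lower. The 2 were *Xrcc5*, which encodes Ku80 (−2.08, SE 0.421, adjusted p = 0.0326 by edgeR), and *Parp1* (−1.51, SE 0.320, adjusted p = 0.0382). *Xrcc5* had 8.62 and 6.26 CPM in VAT and 40.3 and 23.6 in SAT on chow, and *Parp1* had 81.2 and 61.3 in VAT and 268 and 146 in SAT on chow. In muscle 10 of the 17 had intervals above 0 (26.7% of all genes) and 1 below (29.4%), with a median of 0.34. In SAT on chow 7 had intervals above 0 (40.9% of all genes), among them *Atm* (1.61) and *Prkdc* (1.25), kinases of the break response. Another 9 lay below 0 (40.3%), among them *Chek1* (−1.43) and *Xrcc6* (−1.19). In SAT on HFD 9 lay above 0 (38.3%) and 5 below (34.3%). There *Xrcc6* (0.54) and *Chek1* (from 0 to 44 counts) were higher in KO, as they were in muscle (0.34 and 0.45). In VAT *Chek1* was lower by the labels (−0.81) and *Xrcc6* was within counting error. None of 14 enzymes of telomere replication and end processing, nor of 14 genes of telomeric chromatin, was called in any contrast. For SAT on chow *Zbtb10*, a telomere-repeat binding zinc finger gene, was the member of the chromatin list with the largest difference (3.86, from 194 to 2829 counts), and 7 of the 14 had intervals above 0 (40.9% of all genes) and 6 below (40.3%).

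Factors known to act on the *Tert* promoter numbered 19, of which none was called. *Myc*, an activator, stood at 199 (WT) against 191 CPM (KO) for SAT on HFD, 122 against 193 for SAT on chow, 94.9 against 102 for muscle, and 78.2 and 77.0 for the VAT libraries labelled WT and KO. *Mxd1* and *Mnt*, repressors of the MYC network, were higher in KO in SAT on chow (2.48 and 1.70), where *Tert* was lower. So were *Mycn* (2.82, from 3 to 25 counts), *Ets2* (1.71) and *Klf4* (1.67). Of the 18 factors measured in that pair, 10 had intervals above 0 (40.9% of all genes) and 7 below (40.3%). The relation of these factors to *Tert* was not tested. In SAT on HFD, where *Tert* was lower too, *Mxd1* was higher in KO (0.45) and *Mnt* lower (−0.76), and both were lower in KO in muscle (−0.54 for *Mxd1* and −0.60 for *Mnt*), where *Tert* was lower as well. The cell cycle list was called for 14 of 34 genes among conditions (7.83% of all genes) and for 13 in muscle against VAT (1.93%), all higher in muscle. *Top2a* had 304 and 389 CPM in muscle and at most 94.2 elsewhere, and *Mki67* had 251 and 507 against at most 81.7. *Tert* was highest in the WT library of SAT on HFD, and its relation to these cell cycle genes was not tested in these mixed cells.

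By Pearson's r of log2 CPM over the 8 libraries, given as a description since the points share tissue, diet and depth, the protein-coding genes most like *Tert* among 11462 were *Ttc32* (0.97), *Emc8* (0.97) and *Psmd9* (0.96). For *Dkc1* they were *Thumpd1*, *Adi1* and *Bud23* (0.99 each), and for *Terf1* *Lin9* (0.99), *Mrpl47* and *Bud13* (0.98 each). *Terf2* was most like *Tars2* (0.98), and *Terf2ip* most like *Zfp180* (0.98). The closest to *Tinf2* was *Pnrc1* (0.95), to *Acd* *Nanos1* (0.98), to *Pot1a* *Atf6b* (0.99) and to *Pot1b* *Ncoa7* (0.98). Among the members, *Terf1* went with *Terf2ip* (0.88) and *Dkc1* (0.85) and ran against *Pot1b* (−0.78), the genes that were lowest or highest in VAT. *Tert* had no r above 0.43 with any other member.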

How the data were processed

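The data were read counts per gene from RNAseq of 8 libraries of sorted GFP+ cells, and the authors deposited them as whole-number counts with no normalization. HISAT2 2.0.5 and GRCm38/mm10 come from the submitters' processing notes, and the counting program and the use of strand are not given in the sources used here. The labels give a Qiagen column for RNA and a SMARTER mRNA library kit, whereas the paper's methods give Trizol. No reads were processed.

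Libraries were grouped by tissue, diet and genotype from the labels, with every value column matched by name. CPM were computed from TMM-scaled library totals (edgeR 4.0.16 in R 4.3.3), with factors from genes averaging 10 counts or more, and divided by the deposited gene lengths for comparison between genes. Within a pair, the log2 ratio used a prior count of 0.5 and the exact conditional binomial (Clopper-Pearson) interval at 95%, for genes averaging 10 counts or more in that pair. A fold against a library at 0 is the fold against 3 counts and takes the other count as exact. Across libraries, the quasi-likelihood F test of edgeR (robust) was fitted to 16971 genes with condition and genotype as terms, with a threshold of 0.05 on Benjamini-Hochberg adjusted p-values. The WT and KO libraries served as the spread of a condition, and their 4 pairs as that of a genotype. An SE given with an edgeR estimate is the size of the estimate divided by the square root of its F statistic. The test the study used on these counts is not given in the sources used here.

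All 9 members are named. From each of 7 further lists, up to 4 genes were named by lowest adjusted p among conditions. Up to 4 more were named by the largest log2 ratio in a pair whose interval leaves out 0. *Terc*, *H2-Ea-ps* and the exon neighbours were singled out after their values were seen. Members and lists were chosen with earlier results of these data known. Most alike genes were ranked among protein-coding genes averaging 50 counts or more. Exon overlaps came from GENCODE M21, whose coordinates and lengths match those of the counts for all 9 genes, and promoters from RefSeq (GRCm38.p6). Alternatives were other scalings, count filters, DESeq2 1.42.0, fits without robust dispersions, block or genotype term, and fits without each library or pair. Tested on simulated data for the genotype comparison (200 of 16971 genes changed), the fit found 12.5% of the genes given a 2-fold change, 92% at 4-fold and 99.5% at 8-fold with a dispersion of 0.1, and 0%, 3.5% and 54.5% with 0.4.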

Additional observations from a re-analysis of the deposited data

Results flagged for a closer look

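The effect of KO over WT took opposite directions, each beyond counting error, in different tissues or diets for 4 of the 9 genes, as it did for 57% of the 17192 genes measured in at least 2 pairs. With 1 library per genotype and condition, the difference between pairs was not tested for any of them. *Dkc1* was lower in KO in SAT on chow (−1.48 on the log2 scale) and higher in muscle (0.44). *Terf2ip* was higher in SAT on HFD (0.42) and lower in SAT on chow (−0.92) and muscle (−0.54). *Tinf2* was higher in SAT on chow (0.99) and lower in muscle (−0.32), where the interval spanned 0 with library totals, which left 3 of the 9 genes (56.2% of all). *Pot1b* was higher in SAT on HFD (0.49) and lower in VAT (−0.23), where the labels are not borne out by *Tert*. In 3 of the 4 genes 1 of the directions came from the SAT on chow pair. Its libraries also differed in T cell and stromal markers. Stromal markers differed in other pairs too, at 752 (WT) against 1458 CPM (KO) in muscle. They were at 1284 and 2553 CPM in the VAT libraries labelled WT and KO. The part of these cells in the directions was not tested.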

How the results depend on the processing

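No member was called for genotype under any alternative. Library totals turned the *Acd* estimate across pairs from −0.11 to 0.011. The genes called across pairs went from 1 to 41 (every gene with 1 count or more), 19 (DESeq2) and 0 (no tissue and diet block). With every gene of 1 count or more and with DESeq2, in that order, the calls went from 1328 to 3262 and 3339 among conditions, from 0 to 289 and 260 for HFD against chow, from 857 to 2116 and 2305 for VAT against SAT, from 213 to 971 and 1058 for muscle against SAT, and from 328 to 1166 and 1258 for muscle against VAT. Without a genotype term the last 2 were 339 and 542. The members called rose from 0 to 1, *Dkc1*, among conditions with all genes and for VAT against SAT with all genes and with DESeq2. Leaving out libraries in turn gave 510 to 3896 genes and 0 to 1 member among conditions, 0 to 308 genes for HFD against chow, 93 to 3449 genes and 0 to 1 member for VAT against SAT, 37 to 1761 genes and 0 to 1 member for muscle against SAT, and 41 to 1207 for muscle against VAT. The highest count came without the KO library of SAT on chow, which also gave the *Dkc1* calls, except for muscle against VAT, where it came without the WT library of SAT on chow. For the 3 tissue contrasts and the conditions, the lowest counts came without a VAT or muscle library. Leaving out a pair gave 0 to 2 genes across pairs and ranges of −0.58 to 0.081 for *Dkc1*, −0.091 to 0.32 for *Tinf2*, −0.28 to 0.034 for *Pot1a* and −0.044 to 0.21 for *Pot1b*. The sign reversed within −7.12 to 2.51 for *Tert*, −1.13 to 0.49 for *Dkc1*, −0.54 to 0.12 for *Terf2*, −0.82 to 0.32 for *Terf2ip*, −0.072 to 0.37 for *Terf1*, −0.66 to 0.36 for *Tinf2* and −0.74 to 0.11 for *Pot1a* (HFD against chow), −4.07 to 0.43 for *Tert*, −0.68 to 0.16 for *Pot1a* and −0.62 to 0.41 for *Tinf2* (VAT against SAT), −0.28 to 0.14 for *Terf1*, −0.53 to 0.32 for *Terf2ip* and −0.51 to 0.34 for *Pot1a* (muscle against SAT), and −1.18 to 3.38 for *Tert* and −0.079 to 0.44 for *Pot1a* (muscle against VAT). A lone library left in a condition was assumed to vary like the others. Within pairs, 162 of 170 values moved by less than their counting interval, and library totals moved the other 8. The cause was not tested, apart from the wider set of genes where more were tested. The block of WT and KO libraries by tissue and diet was part of the genotype test, and the labels give no replicate numbers for another pairing. *Tert* in VAT and *Terc* lie near the floor, where the depth shows no direction.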
